A study of Arabidopsis thaliana with 7 samples.

Results

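Immature tricellular pollen (TCP) was compared with uninucleate microspores (UNM) of Arabidopsis, the interval of male gametophyte development that spans both pollen mitoses. The comparison used 4 of the 7 arrays of the series analysed here, 2 of TCP and 2 of UNM, and took in all probe sets other than the array's own controls. Of 22746 such probe sets, 14364 reached a signal of 40 on at least 1 array and were tested, and of 13355 genes with a name for their probe set, 8161 were tested. Both groups were pollen of the wild-type accession Landsberg erecta (Ler-0) with no genetic modification, from plants grown independently on compost at 21 °C with 16 h of light. The labels give no difference between TCP and UNM other than the stage of the spores, which had been separated on density gradients. According to the study's microscopy the TCP isolate also held some bicellular pollen, and the UNM isolate some tetrads and some bicellular pollen. A signal is the intensity of 1 probe set on 1 ATH1 array, a short-oligonucleotide array hybridized with biotin-labelled cRNA, after every array had been scaled to the same trimmed mean of 100. The 2 arrays of a stage held RNA of separately grown plants, so the p-values measure the spread between such populations.

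A microspore released from the tetrad has 1 haploid nucleus and a large vacuole. Pollen mitosis I gives a large vegetative cell that encloses a small generative cell, and pollen mitosis II of the generative cell gives the sperm cells. The vegetative cell exits the cell cycle, stores transcripts and reserves, and later builds the pollen tube, which grows at its tip by actin-guided delivery of membrane and wall material.

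Transcripts that fell outnumbered those that rose, whereas more rises than falls measured 10-fold or above. At TCP relative to UNM, 2996 probe sets (20.9% of those tested) were higher and 5704 (39.7%) were lower at a Benjamini-Hochberg adjusted p under 0.05 (limma), which together made 60.6% of the tested probe sets. For 5664 probe sets the test was not passed. The median log2 difference was 1.79 over the probe sets called higher and -1.68 over those called lower. Differences of at least 10-fold made up 24.5% of the calls higher (734) and 8.82% of the calls lower (503). At 32-fold or more, 310 probe sets were higher and 22 lower, and at 100-fold or more the counts were 82 and 1. Signals under 20 had been raised to 20, so 696 of the rises (23.2%) and 1854 of the falls (32.5%) are lower bounds, and these sizes do not rank rises against falls.

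**Figure D1:**
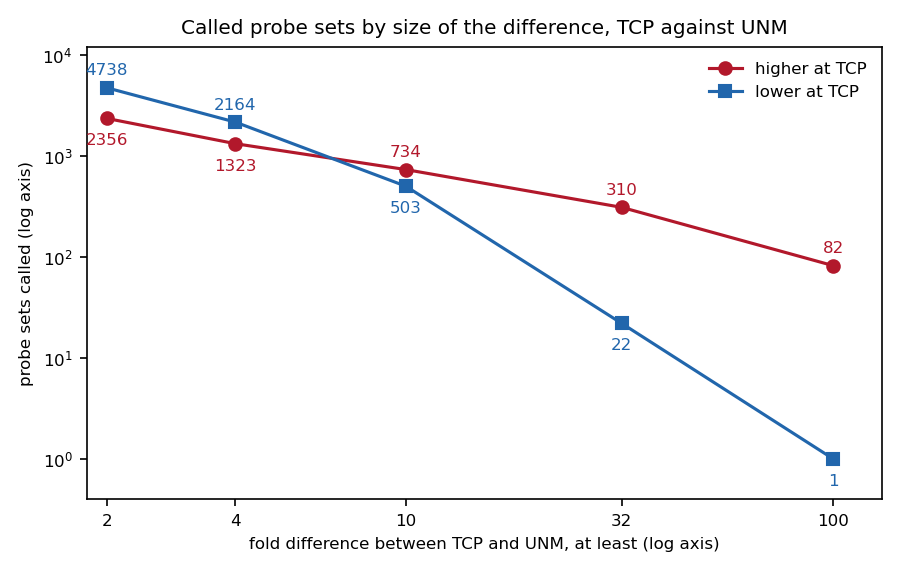
Number of probe sets called higher (red) or lower (blue) at TCP relative to UNM whose difference was at least 2-, 4-, 10-, 32- or 100-fold, both axes logarithmic. Falls outnumbered rises at 2-fold (4738 falls, 2356 rises), whereas rises outnumbered falls from 10-fold upward (734 rises, 503 falls), with 696 of the rises and 1854 of the falls known only as lower bounds.

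The sign of a small difference depended on how the arrays were scaled. The median log2 difference over all tested probe sets was -0.38, against -0.07 when arrays were scaled to the median of probe sets present on all arrays and 0.01 after quantile normalization. The split of the calls was 2996 higher and 5704 lower (34.4% higher), against 3628 and 4821 (42.9% higher) with median scaling and 4028 and 4579 (46.8% higher) with quantile normalization. No probe set called in one direction was called in the other under any alternative. A signal is relative to the other transcripts on its array, and in bulk RNA a transcript in fewer cells cannot be told apart from less of it per cell.

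The transcripts that were called made up most of the signal at the stage where they were high. Probe sets called higher held 66% and 67.1% of the summed signal on the TCP arrays, against 13% and 12.2% on the UNM arrays. Probe sets called lower held 12.5% and 11.6% of it at TCP, against 62.7% and 63.1% at UNM. The calls were made from these same signals, so the shares are a description. All called probe sets had both TCP arrays on one side of both UNM arrays, as had 4240 (above) and 7250 (below) of all tested probe sets. The median standard deviation between the 2 arrays of a stage was 0.16 at TCP and 0.17 at UNM on the log2 scale, over probe sets at 40 or more. Over the 5 nuclear chromosomes, 20.0% to 22.4% of the tested genes were higher and 37.6% to 40.2% lower.

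Genes that mark late pollen all rose. In the values that follow, errors after ± are standard errors of the log2 difference with 2 arrays per stage, and a fold is given as at least N-fold where an array of the lower stage lay under the floor of 20, to which lower signals were raised for the test. All 10 late pollen markers were higher at TCP, with a median log2 difference of 5.88, and their summed signal was 30133 and 31154 at TCP, against 501 and 482 at UNM. AT59 (AT1G14420), a pectate lyase homologue, had signals of 3379 and 3277 at TCP, against 20.5 and 3.12 at UNM (log2 difference 7.36 ± 0.27, at least 164-fold higher, adjusted p = 2.1e-05). PLIM2a (AT2G45800), a pollen actin bundler with LIM domains, had signals of 7036 and 8760 at TCP, against 39.4 and 61.2 at UNM (log2 difference 7.32 ± 0.26, 160-fold higher, adjusted p = 2.1e-05). The receptor-like kinases ANX1 and ANX2 keep the growing pollen tube intact, and both were near background in microspores. ANX2 (AT5G28680) had signals of 1079 and 1004 at TCP, against 11.9 and 11.1 at UNM (log2 difference 5.70 ± 0.18, at least 52-fold higher, adjusted p = 2.1e-05), and ANX1 (AT3G04690) had 844 and 940 at TCP, against 2.01 and 1.11 at UNM (log2 difference 5.48 ± 0.17, at least 44.5-fold higher, adjusted p = 2.1e-05). The lowest rise on this list was that of ACT12 (AT3G46520), a pollen actin, with 620 and 656 at TCP, against 111 and 80.7 at UNM (log2 difference 2.75 ± 0.23, 6.73-fold higher, adjusted p = 0.00018).

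Of 8 sperm cell markers listed, only the 3 that matched a name in the annotation used here could be followed. MGH3 (AT1G19890), the male-gamete histone H3 variant, had 2372 and 2435 at TCP, against 137 and 104 at UNM (log2 difference 4.33 ± 0.28, 20.1-fold higher, adjusted p = 8.1e-05). The tetraspanin TET12 also rose (log2 difference 1.70 ± 0.18, 3.25-fold higher, adjusted p = 0.00051), whereas TET11 (AT1G18520), a tetraspanin of the same list, had 524 and 481 at TCP, against 1444 and 1121 at UNM and fell (log2 difference -1.34 ± 0.20, 2.53-fold lower, adjusted p = 0.0018). Both microspore arrays thus carried MGH3 and TET12 signals above the floor of 20, and the arrays of the stages did not overlap for any of these genes.

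Markers of other tissues could be followed only where they matched a name in the annotation used here: 4 of 11 for the tapetum and 7 of 11 for meiocytes. For leaf photosynthesis 11 of 18 could be followed, and for the female gametophyte 6 of 11. The largest difference among those tested was that of SWEET8, and smaller ones were called in the tapetum, leaf and meiocyte lists. Of 4 tapetum markers measured, AMS and SPL stayed under 40 on every array, and EMS1 (AT5G07280) had 68.6 and 61.7 at TCP, against 31.2 and 33.8 at UNM (log2 difference 1.00 ± 0.21, 2-fold higher, adjusted p = 0.0081; adjusted p = 0.057 without the first TCP array). SWEET8 (AT5G40260), a sugar transporter needed for the pollen wall and listed here with the tapetum, had 871 and 820 at TCP, against 4494 and 6971 at UNM (log2 difference -2.73 ± 0.33, 6.62-fold lower, adjusted p = 0.00078). The summed signal of the list was 968 and 910 at TCP, against 4539 and 7027 at UNM, nearly all of it SWEET8. The leaf photosynthesis markers summed to 490 and 541 at TCP, against 606 and 658 at UNM, with 1 higher and 2 lower of 10 tested. The gene that was higher, PSAE-1, was not called without either TCP array or the first UNM array (adjusted p of 0.084 to 0.17), and 1 gene was lower without the first TCP or the first UNM array. Of 4 meiocyte markers tested 1 was higher and 2 were lower, but 0 were higher and 1 lower without the first TCP, the second TCP or the second UNM array, and neither of the 2 tested female gametophyte markers was called. The study's microscopy found no contaminating sporophytic cells in the isolated spores. The part of these other cells in the results was not tested.

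Of the 12 largest rises among genes with a locus, 11 belong to loci that carry no gene symbol in the tables used here. The largest was that of AT3G26110, with 5541 and 6691 at TCP, against 23.2 and 15.4 at UNM (log2 difference 8.14 ± 0.20, at least 283-fold higher, adjusted p = 2.1e-05), followed by AT1G78460 with 5874 and 4985 at TCP, against 20.9 and 24.2 at UNM (log2 difference 7.91 ± 0.23, 240-fold higher, adjusted p = 2.1e-05). Over the 12 genes the weakest TCP signal lay far above the strongest UNM signal. They were chosen as the largest rises by these same signals, so this gap is a description. The 12 genes had signals of 2.52 to 37.9 at UNM, 49.7 to 465 in bicellular pollen, 3277 to 6691 at TCP and 3538 to 10992 on the mature pollen array. Signals in bicellular pollen lay between those of UNM and TCP, and those at TCP overlapped the range of mature pollen.

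Of the 12 largest falls, 8 are lower bounds, as are 9 of the 12 largest rises. AT5G39850 had 11.3 and 7.46 at TCP, against 1324 and 1176 at UNM (log2 difference -5.96 ± 0.21, at least 62.4-fold lower, adjusted p = 2.1e-05), and AT3G58290 had 26.7 and 29.3 at TCP, against 1738 and 1658 at UNM (log2 difference -5.92 ± 0.19, 60.6-fold lower, adjusted p = 2.1e-05). AT5G14520, which the RefSeq gene table lists with the synonym PES, is the Arabidopsis homologue of PESCADILLO, a nucleolar factor needed to make the large ribosomal subunit, and had 22.9 and 7.97 at TCP, against 709 and 760 at UNM (log2 difference -5.10 ± 0.18, at least 34.3-fold lower, adjusted p = 2.1e-05). Signals of these 12 genes ran from 582 to 2249 at UNM, 410 to 1544 in bicellular pollen, 1.91 to 79.2 at TCP and 7.76 to 170 on the mature pollen array. The range in bicellular pollen overlapped that of microspores and not that of TCP. The only fall of over 100-fold was that of a probe set without a gene name here, at 21.3 and 3.83 at TCP, against 2126 and 2675 at UNM (at least 116-fold).

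**Figure D2:**
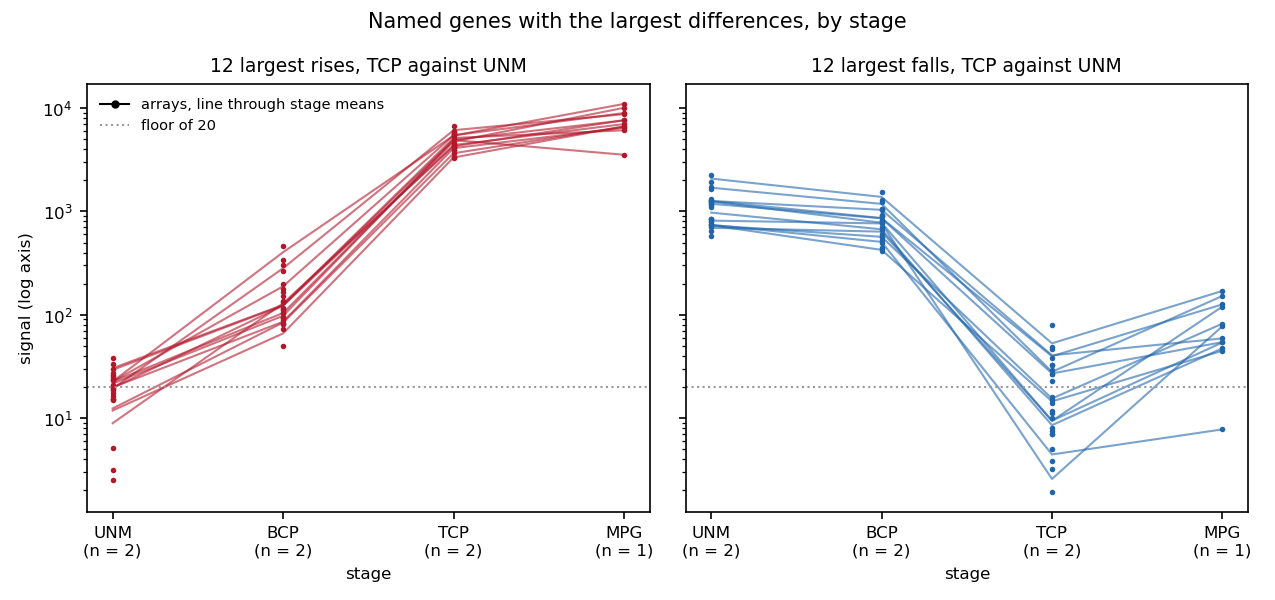
Signal of the 12 genes with the largest rise and the 12 genes with the largest fall at TCP relative to UNM, at 4 stages in order (UNM, BCP is bicellular pollen, TCP, and MPG is mature pollen with 1 array), on a logarithmic axis. The rising genes were at 49.7 to 465 in BCP and 3277 to 6691 at TCP, and the falling genes at 410 to 1544 in BCP and 1.91 to 79.2 at TCP.

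Transcripts near background at one of the stages were counted in the same way. A set of 308 probe sets was at 40 or more on both TCP arrays and under 20 on both UNM arrays, and 38 of them were already at 40 or more on both arrays of bicellular pollen. A larger set of 822 was at 40 or more on both UNM arrays and under 20 on both TCP arrays, and 627 of these were still at 40 or more on both arrays of bicellular pollen. On the mature pollen array, 276 of the 308 were at 40 or more, and 45 of the 822. The median of the stage means was 299 at TCP and 7.35 at UNM for the 308, and 7.56 at TCP and 83.3 at UNM for the 822. These sets were chosen by the signals at TCP and UNM, and their values are a description.

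Gene groups with known names were then followed one by one, and their counts are set against the 20.9% of probe sets called higher and the 39.7% called lower overall. Scaling from the spike-in controls, whose mean log2 signal was 8.29 and 8.83 at TCP, against 7.96 and 8.8 at UNM, left 1190 probe sets higher and 2387 lower, and 162 of the 432 called genes named or grouped here then missed the threshold without a change of direction. Under it no chromatin remodelling or DNA repair gene was called, and 1 gene of respiration was higher and 1 lower, whereas all 10 late pollen markers were still higher and 9 of the 10 ribosome assembly genes lower.

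**Figure D3:**
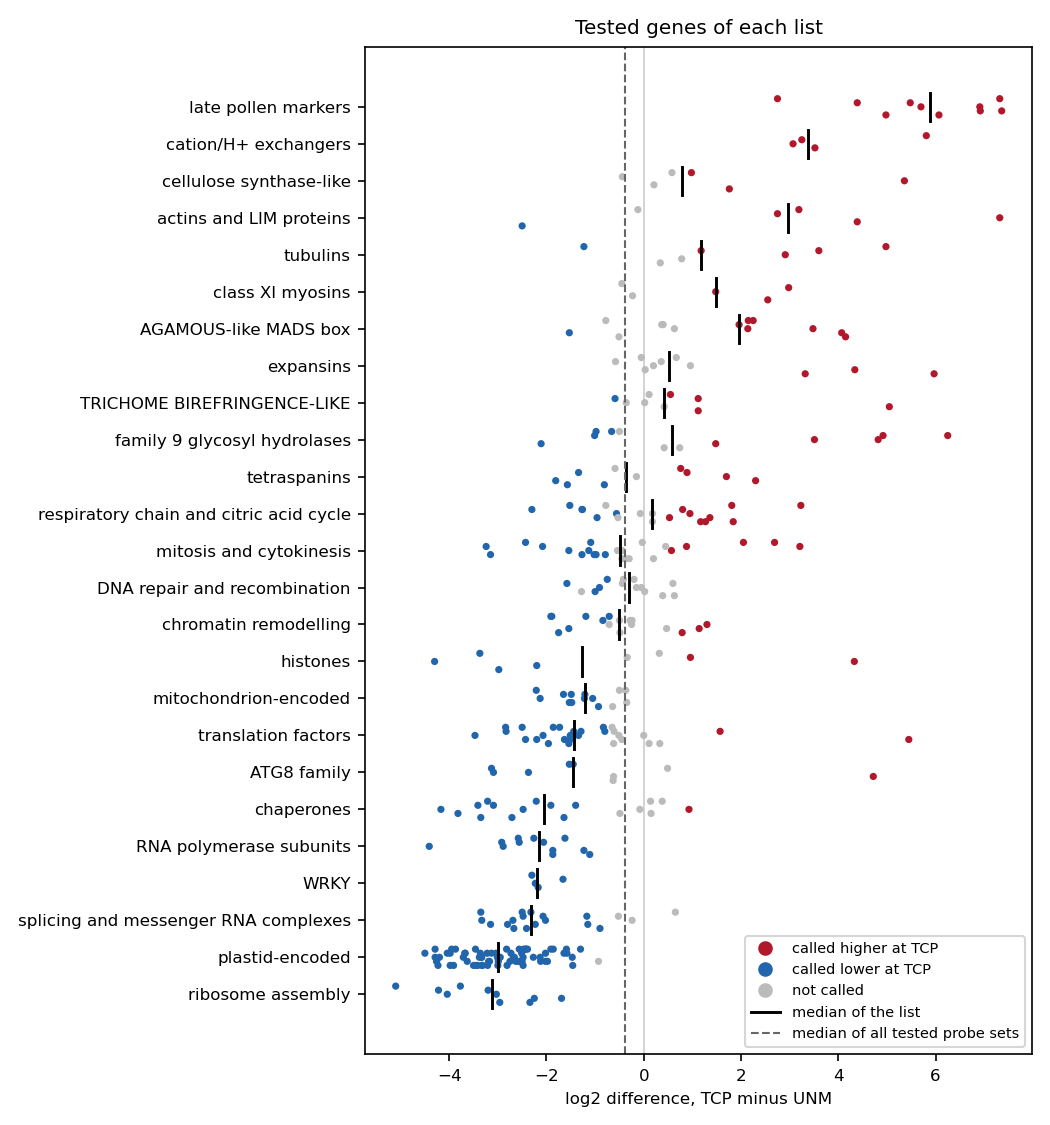
Log2 difference (TCP minus UNM) of each tested gene in 25 gene groups. Red points were called higher, blue points called lower and grey points not called; the black bar is the median of the group and the dashed line the median of all tested probe sets (-0.38). All 12 RNA polymerase subunits and all 10 ribosome assembly genes lie below 0, and all 10 late pollen markers above it.

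Genes of the transcription and RNA-processing machinery fell. All 12 RNA polymerase subunits tested were lower at TCP, with log2 differences of -4.41 to -1.11 and a median of -2.16, and their summed signal was 759 and 945 at TCP, against 3497 and 3609 at UNM. NRPB12 (AT5G41010), a small subunit named after RNA polymerase II but not particular to it, had 27.2 and 43.8 at TCP, against 696 and 778 at UNM (log2 difference -4.41 ± 0.28, 21.3-fold lower, adjusted p = 8.1e-05). NRPA2 (AT1G29940), of the catalytic core of RNA polymerase I, had 46.9 and 49.4 at TCP, against 377 and 351 at UNM (log2 difference -2.92 ± 0.16, 7.56-fold lower, adjusted p = 5.2e-05), and NRPC2 (AT5G45140), its counterpart in RNA polymerase III, had 50.7 and 50.6 at TCP, against 186 and 185 at UNM (log2 difference -1.87 ± 0.16, 3.66-fold lower, adjusted p = 0.0002). NRPB12, NRPA2 and NRPC2 were therefore lower on both TCP arrays than on either UNM array. The smallest fall was that of NRPB6B (log2 difference -1.11 ± 0.25, 2.16-fold lower, adjusted p = 0.0095), which passed the test neither without the first TCP array (adjusted p = 0.053) nor without the second UNM array (adjusted p = 0.06).

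Of 19 genes of splicing and messenger RNA complexes, 16 were lower and none higher, with a median log2 difference of -2.32. LSM3B (AT1G76860), a member of the Sm-like ring that binds RNA, had 30.5 and 27.2 at TCP, against 284 and 305 at UNM (log2 difference -3.35 ± 0.17, 10.2-fold lower, adjusted p = 3.9e-05), and LSM6B of the same ring also fell (log2 difference -3.33 ± 0.25, 10.1-fold lower, adjusted p = 0.00013). MAC3A (AT1G04510), a component of the spliceosome-associated Prp19-type complex, had 32.7 and 49.5 at TCP, against 303 and 422 at UNM (log2 difference -3.15 ± 0.29, 8.9-fold lower, adjusted p = 0.00028). The genes not called were those of the splicing factor U2AF: ATU2AF35A had a log2 difference of 0.65 (adjusted p = 0.12), U2AF35B of -0.24 (adjusted p = 0.69) and ATU2AF65A of -0.52 (adjusted p = 0.059). U2AF recognizes the 3′ splice site.

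Ribosome assembly genes had the lowest median of the groups plotted. All 10 were lower, with log2 differences of -5.1 to -1.69 and a median of -3.12, and their summed signal was 410 and 374 at TCP, against 4292 and 4181 at UNM. Besides PES, the largest falls were those of PRH75 (AT5G62190), a nucleolar RNA helicase, with 13.4 and 3.63 at TCP, against 388 and 359 at UNM (log2 difference -4.22 ± 0.16, at least 18.6-fold lower, adjusted p = 2.4e-05), and of NLE (AT5G52820), the NOTCHLESS homologue that acts on the large subunit. NLE had 34.7 and 35.1 at TCP, against 681 and 486 at UNM (log2 difference -4.04 ± 0.25, 16.5-fold lower, adjusted p = 6.6e-05). IMP4 (AT1G63780), part of the U3 particle that processes ribosomal RNA, had 57.6 and 55.6 at TCP, against 867 and 688 at UNM (log2 difference -3.77 ± 0.21, 13.7-fold lower, adjusted p = 5.4e-05). In each of these genes both TCP arrays lay far below both UNM arrays.

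**Figure D4:**
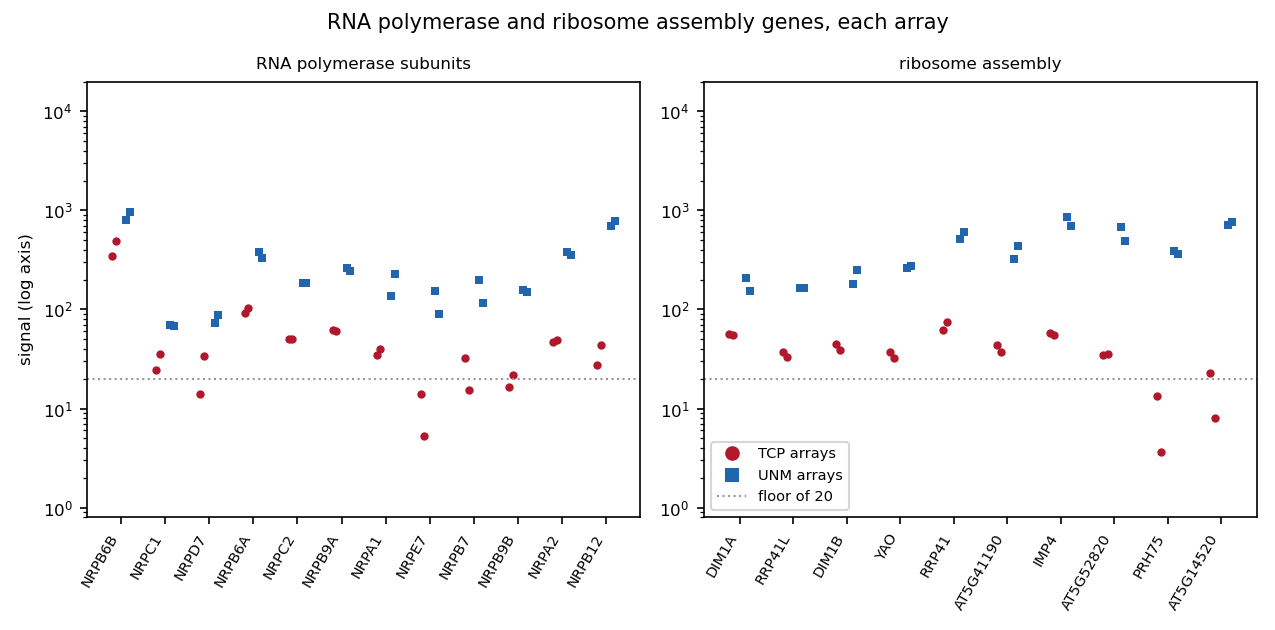
Signal on each TCP array (red circles) and each UNM array (blue squares) for 12 RNA polymerase subunits and 10 ribosome assembly genes, on a logarithmic axis. For every gene both TCP arrays lie below both UNM arrays, and the summed signal of the assembly genes was 410 and 374 at TCP, against 4292 and 4181 at UNM.

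Translation factors that could be followed fell as a group, with exceptions among the initiation factors. The study's list holds 82 loci, of which only the 32 with a name in the annotation used here could be followed. Of the 9 loci it lists as poly(A)-binding proteins, 1 could be followed. Of 29 tested, 2 were higher and 19 lower, with a median log2 difference of -1.44. The elongation factor subunit EF1Balpha was represented by AT5G12110, with 22.1 and 19.8 at TCP, against 251 and 216 at UNM (log2 difference -3.47 ± 0.19, at least 11.1-fold lower, adjusted p = 4.7e-05), and by AT5G19510, with 1044 and 623 at TCP, against 4456 and 4232 at UNM (log2 difference -2.43 ± 0.27, 5.38-fold lower, adjusted p = 0.0006). AT5G44320, the eIF3d subunit of the complex that holds the small ribosomal subunit during initiation, had 156 and 126 at TCP, against 1015 and 993 at UNM (log2 difference -2.84 ± 0.19, 7.16-fold lower, adjusted p = 8.8e-05). Both genes that rose were listed as eIF1, which helps to select the start codon. AT1G54290 had 1507 and 1810 at TCP, against 40.1 and 35.9 at UNM (log2 difference 5.45 ± 0.20, 43.6-fold higher, adjusted p = 2.1e-05), and AT5G54940 had 312 and 375 at TCP, against 120 and 110 at UNM (log2 difference 1.57 ± 0.20, 2.98-fold higher, adjusted p = 0.001). The remaining eIF1 gene tested, AT4G27130, had 471 and 553 at TCP, against 491 and 529 at UNM (log2 difference 0.00, adjusted p = 0.99), so its arrays overlapped. Under scaling from the spike-in controls 8 of the 29 factors were lower in place of 19.

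Chaperones moved in the same direction as the assembly genes, with 12 of 18 lower, 1 higher and a median log2 difference of -2.06. Cpn60beta3 (AT5G56500), a subunit of the plastid chaperonin, had 52.9 and 20.6 at TCP, against 636 and 556 at UNM (log2 difference -4.17 ± 0.44, 18-fold lower, adjusted p = 0.00047), and Cpn60beta2 was also lower (log2 difference -3.41 ± 0.17, 10.6-fold lower, adjusted p = 3.7e-05). Hop1 (AT1G12270), which links Hsp70 to Hsp90, had 19.6 and 8.97 at TCP, against 283 and 282 at UNM (log2 difference -3.82 ± 0.18, at least 14.1-fold lower, adjusted p = 3.6e-05), and its relative Hop2 fell too (log2 difference -3.35 ± 0.18, 10.2-fold lower, adjusted p = 4.9e-05). The chaperone that rose was ATERDJ3B, a J-domain protein of the endoplasmic reticulum, with 1237 and 1160 at TCP, against 705 and 560 at UNM (log2 difference 0.93 ± 0.20, 1.91-fold higher, adjusted p = 0.0084; adjusted p = 0.051 without the first TCP array).

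Signals of nearly all plastid-encoded transcripts were lower. The study primed its cDNA with oligo(dT), which binds poly(A), and the part of this priming in the signals of organelle transcripts was not tested. Of 69 plastid-encoded genes tested, 68 were lower, with a median log2 difference of -2.99, and their summed signal was 20467 and 18293 at TCP, against 78164 and 100728 at UNM. psbB, a core antenna protein of photosystem II, had 80 and 73.6 at TCP, against 1205 and 1795 at UNM (log2 difference -4.26 ± 0.25, 19.2-fold lower, adjusted p = 6.2e-05). The gene not called was atpE of the ATP synthase, with 3024 and 3720 at TCP, against 5208 and 7809 at UNM (log2 difference -0.93, adjusted p = 0.057), although all 69 were lower with quantile normalization. Of 14 mitochondrion-encoded genes tested, 10 were lower, with a median log2 difference of -1.22, but 6 without the first TCP array or without the second UNM array and 2 with spike-in scaling. cox2, a cytochrome c oxidase subunit, had 66.3 and 82.7 at TCP, against 339 and 348 at UNM (log2 difference -2.21 ± 0.19, 4.64-fold lower, adjusted p = 0.0002).

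Nuclear genes of the respiratory chain and citric acid cycle did not move together. Of 20 tested, 9 were higher and 6 lower, with a median log2 difference of 0.18, and 3 were lower without the first TCP array or without the second UNM array. The alternative NAD(P)H dehydrogenases, which bypass the first complex of the chain, changed in both directions. NDB3 (AT4G21490) had 1213 and 687 at TCP, against 97 and 98.2 at UNM (log2 difference 3.23 ± 0.29, 9.36-fold higher, adjusted p = 0.00025), and NDB2 rose as well (log2 difference 1.84 ± 0.25, 3.57-fold higher, adjusted p = 0.0014), whereas NDB4 (AT2G20800) had 5.74 and 8.97 at TCP, against 86.3 and 112 at UNM (log2 difference -2.30 ± 0.35, at least 4.92-fold lower, adjusted p = 0.0021). The succinate dehydrogenase genes SDH1-1, SDH2-1 and SDH2-2 rose, with SDH2-1 at 2383 and 2386 at TCP, against 954 and 907 at UNM (log2 difference 1.36 ± 0.17, 2.56-fold higher, adjusted p = 0.00085). CYTC-2 (AT4G10040), one of the cytochrome c genes, had 3124 and 3483 at TCP, against 1338 and 1393 at UNM (log2 difference 1.27 ± 0.18, 2.42-fold higher, adjusted p = 0.0016). IDH-V (AT5G03290), a catalytic subunit of isocitrate dehydrogenase, had 484 and 427 at TCP, against 1217 and 1391 at UNM and fell (log2 difference -1.52 ± 0.19, 2.86-fold lower, adjusted p = 0.00096). ACLA-1 (AT1G10670), a subunit of ATP-citrate lyase, which makes acetyl-CoA in the cytosol, had 1505 and 1404 at TCP, against 442 and 388 at UNM (log2 difference 1.81 ± 0.22, 3.51-fold higher, adjusted p = 0.00082).

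Histone genes changed in both directions. Of 8 histone genes tested, all 4 of type H2B were lower, MGH3 and HON4, of the linker histone family, were higher, and 2 were not called, the centromeric HTR12 (log2 difference -0.34, adjusted p = 0.18) and the linker histone HIS1-3 (log2 difference 0.32, adjusted p = 0.31). HTB1 (AT1G07790) had 40.5 and 59.3 at TCP, against 890 and 1049 at UNM (log2 difference -4.30 ± 0.24, 19.7-fold lower, adjusted p = 5.3e-05), and HTB4 (AT5G59910) had 26.6 and 50.8 at TCP, against 415 and 350 at UNM (log2 difference -3.37 ± 0.33, 10.4-fold lower, adjusted p = 0.00033). HTB11 was at 1.41 on both TCP arrays, against 94.6 and 89.2 at UNM (log2 difference -2.20 ± 0.20, at least 4.6-fold lower, adjusted p = 0.00025). The call of HON4 (log2 difference 0.96 ± 0.24, 1.94-fold higher, adjusted p = 0.016) was lost without the first UNM array (adjusted p = 0.062), the second UNM array (adjusted p = 0.078) or the first TCP array (adjusted p = 0.075). Of 6 DNA replication genes tested, 4 were lower and none higher, but 2 without the first TCP array, the second TCP array or the first UNM array. POLA3 (AT5G41880), of the DNA polymerase alpha-primase complex, had 34.3 and 28.7 at TCP, against 122 and 111 at UNM (log2 difference -1.89 ± 0.19, 3.72-fold lower, adjusted p = 0.0004).

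Genes of mitosis and cytokinesis moved in both directions, at shares near those of all tested probe sets. The 61 core cell-cycle loci of the study's list could not be followed here. Of 24 tested, 5 were higher (20.8%) and 11 lower (45.8%), against 20.9% and 39.7% of all tested probe sets. Their median log2 difference was -0.49, and 6 were higher and 6 lower with quantile normalization. The Aurora kinases AUR1 and AUR2, which act on the spindle and the cell plate, were higher: AUR2 (AT2G25880) had 1126 and 1789 at TCP, against 133 and 176 at UNM (log2 difference 3.21 ± 0.29, 9.26-fold higher, adjusted p = 0.00025) and AUR1 (AT4G32830) had 1970 and 1806 at TCP, against 286 and 299 at UNM (log2 difference 2.69 ± 0.17, 6.46-fold higher, adjusted p = 7.9e-05). KEU (AT1G12360), a vesicle-fusion regulator of cytokinesis, had 444 and 508 at TCP, against 120 and 110 at UNM (log2 difference 2.05 ± 0.20, 4.14-fold higher, adjusted p = 0.00036). In contrast, the spindle checkpoint gene BUB3.1 (AT3G19590) had 31.2 and 24.9 at TCP, against 265 and 231 at UNM (log2 difference -3.15 ± 0.22, 8.88-fold lower, adjusted p = 0.00011), and topoisomerase II (TOPII) had 30.7 and 22.3 at TCP, against 105 and 117 at UNM (log2 difference -2.08 ± 0.22, 4.24-fold lower, adjusted p = 0.00047). The chromosome-binding proteins 3xHMG-box2 (log2 difference -3.24 ± 0.27, 9.44-fold lower, adjusted p = 0.00019) and 3xHMG-box1 (log2 difference -2.43 ± 0.18, at least 5.38-fold lower, adjusted p = 0.00012) fell as well. Among 17 chromatin remodelling genes, 3 were higher (17.6%) and 7 lower (41.2%), also near the shares of all tested probe sets. CHR17 (AT5G18620), an ISWI-type remodeller, had 305 and 313 at TCP, against 121 and 131 at UNM (log2 difference 1.30 ± 0.16, 2.46-fold higher, adjusted p = 0.00099), whereas BSH (AT3G17590), the SNF5-type subunit of SWI/SNF complexes, had 34.4 and 20.3 at TCP, against 109 and 90.1 at UNM (log2 difference -1.91 ± 0.30, 3.75-fold lower, adjusted p = 0.0025). Of 14 DNA repair and recombination genes, 4 were lower and none higher; the count of lower genes was 1 without either TCP array and 2 without the first UNM array, and quantile normalization gave 3 higher and 2 lower.

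Cytoskeletal families held large rises beside falls of other members. Of 7 tubulins, 4 were higher and 1 lower, with a median log2 difference of 1.18. TUA1 (AT1G64740), the pollen alpha-tubulin, had 1912 and 1790 at TCP, against 52.5 and 65.6 at UNM (log2 difference 4.98 ± 0.22, 31.5-fold higher, adjusted p = 3.1e-05), and TUB9 (AT4G20890) had 3773 and 3881 at TCP, against 339 and 295 at UNM (log2 difference 3.60 ± 0.18, 12.1-fold higher, adjusted p = 3.7e-05). TUB7 had 339 and 318 at TCP, against 692 and 852 at UNM (log2 difference -1.23 ± 0.19, 2.34-fold lower, adjusted p = 0.0021), the only tubulin called lower. The SPIRAL1 family binds microtubules. SP1L4 (AT5G15600) had 4501 and 5961 at TCP, against 33.7 and 50.7 at UNM (log2 difference 6.97 ± 0.31, 125-fold higher, adjusted p = 3e-05), whereas the founding member SPR1 (AT2G03680) had 107 and 170 at TCP, against 585 and 994 at UNM (log2 difference -2.50 ± 0.34, 5.65-fold lower, adjusted p = 0.0014) and SP1L3 also fell (log2 difference -1.76 ± 0.22, 3.4-fold lower, adjusted p = 0.00098). Of 6 actins and LIM proteins, 4 were higher and 1 lower. ACT11 (AT3G12110) had 3628 and 3650 at TCP, against 569 and 281 at UNM (log2 difference 3.19 ± 0.35, 9.1-fold higher, adjusted p = 0.00057), and the widely expressed WLIM2a (AT2G39900) had 28.9 and 31.9 at TCP, against 182 and 163 at UNM (log2 difference -2.50 ± 0.19, 5.67-fold lower, adjusted p = 0.00013).

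Motors and adaptors of the actin network changed as well. Of 5 class XI myosins, which carry organelles along actin, 3 were higher and none lower. XIC (AT1G08730) had 1105 and 1216 at TCP, against 124 and 174 at UNM (log2 difference 2.98 ± 0.22, 7.88-fold higher, adjusted p = 0.00012), and XIJ (log2 difference 2.55 ± 0.33, 5.87-fold higher, adjusted p = 0.0011) and XIE (log2 difference 1.48 ± 0.19, 2.79-fold higher, adjusted p = 0.001) also rose. Of 6 NETWORKED proteins tested, which tie actin to membranes, 2 were higher and 4 lower. NET2D (AT2G22560) had 924 and 820 at TCP, against 20.8 and 37.1 at UNM (log2 difference 4.97 ± 0.31, 31.3-fold higher, adjusted p = 7.5e-05) and NET2C also rose (log2 difference 3.28 ± 0.23, at least 9.74-fold higher, adjusted p = 0.0001), whereas NET1A (log2 difference -1.81 ± 0.19, at least 3.5-fold lower, adjusted p = 0.00043) and NET1C (log2 difference -1.52 ± 0.27, at least 2.86-fold lower, adjusted p = 0.0041) fell. Both members that rose were of subfamily 2.

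Genes that loosen or build the cell wall were among the larger rises. Of 10 expansins, which loosen walls, 3 were higher and none lower. EXPB5 (AT3G60570) had 2511 and 2676 at TCP, against 40 and 42.6 at UNM (log2 difference 5.97 ± 0.18, 62.8-fold higher, adjusted p = 2.1e-05), EXPA24 (AT5G39310) had 373 and 440 at TCP, against 10.4 and 14.5 at UNM (log2 difference 4.34 ± 0.17, at least 20.2-fold higher, adjusted p = 2.4e-05), and EXPA4 rose by a smaller factor (log2 difference 3.32 ± 0.21, at least 9.97-fold higher, adjusted p = 7.7e-05). Of 12 glycosyl hydrolases of family 9, the endoglucanase family, 5 were higher and 4 lower, with 2 lower without the second UNM array. GH9A4 (AT3G43860) had 2644 and 2446 at TCP, against 28 and 39.8 at UNM (log2 difference 6.25 ± 0.23, 76.2-fold higher, adjusted p = 2.1e-05), and GH9B7 had 44 and 47.6 at TCP, against 195 and 200 at UNM (log2 difference -2.11 ± 0.16, 4.31-fold lower, adjusted p = 0.00015). Among 6 cellulose synthase-like genes, 3 were higher and none lower, led by CSLC12 (AT4G07960) with 1173 and 1449 at TCP, against 30.6 and 33.1 at UNM (log2 difference 5.36 ± 0.19, 40.9-fold higher, adjusted p = 2.1e-05). TBL20, of a family that adds acetyl groups to wall polysaccharides, had 836 and 616 at TCP, against 23.5 and 16.4 at UNM (log2 difference 5.05 ± 0.30, at least 33.1-fold higher, adjusted p = 5.8e-05). In this family 4 of 9 genes tested were higher and 1 lower. Of 5 RALF-like signalling peptides tested, 2 were higher and 1 lower. RALFL26 (AT3G25170) had 4369 and 4883 at TCP, against 32.4 and 44.9 at UNM (log2 difference 6.92 ± 0.30, 121-fold higher, adjusted p = 3e-05) and RALFL25 rose as well (log2 difference 6.91 ± 0.30, 120-fold higher, adjusted p = 3e-05). RALFL24 had 2.52 and 0.908 at TCP, against 44 and 53.6 at UNM and fell (log2 difference -1.28 ± 0.19, at least 2.43-fold lower, adjusted p = 0.0021). LCR72, a small cysteine-rich protein, had 4865 and 5700 at TCP, against 43.4 and 36.5 at UNM (log2 difference 7.05 ± 0.19, 132-fold higher, adjusted p = 2.1e-05).

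Large rises were also found among ion and sugar transport genes. All 4 cation/H+ exchangers tested were higher, with log2 differences of 3.07 to 5.81. CHX15 (AT2G13620) had 1206 and 1202 at TCP, against 13.2 and 23 at UNM (log2 difference 5.81 ± 0.29, at least 56.2-fold higher, adjusted p = 3.7e-05), and CHX19 (AT3G17630) had 3045 and 3254 at TCP, against 310 and 352 at UNM (log2 difference 3.25 ± 0.20, 9.54-fold higher, adjusted p = 6.9e-05). Of 11 SWEET transporters, 2 were higher and 1 lower. AtVEX1 is the annotated name of SWEET5, a sugar transporter of the vegetative cell, and had 3918 and 2606 at TCP, against 53.8 and 42.2 at UNM (log2 difference 6.07 ± 0.34, 67.1-fold higher, adjusted p = 5.3e-05), opposite to SWEET8. SWEET11, the other SWEET called higher (log2 difference 0.67 ± 0.23, 1.59-fold higher, adjusted p = 0.048), was not called once any 1 of the 4 arrays was left out (adjusted p of 0.067 to 0.2). Of 4 calmodulin-like genes tested, 2 were higher and 2 lower. CML42 (AT4G20780), a calmodulin-like calcium sensor, had 3157 and 2780 at TCP, against 78.6 and 79 at UNM (log2 difference 5.23 ± 0.18, 37.6-fold higher, adjusted p = 2.1e-05). CML23 had 5.24 and 7.46 at TCP, against 266 and 138 at UNM and fell (log2 difference -3.26 ± 0.64, at least 9.6-fold lower, adjusted p = 0.0059).

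**Figure D5:**
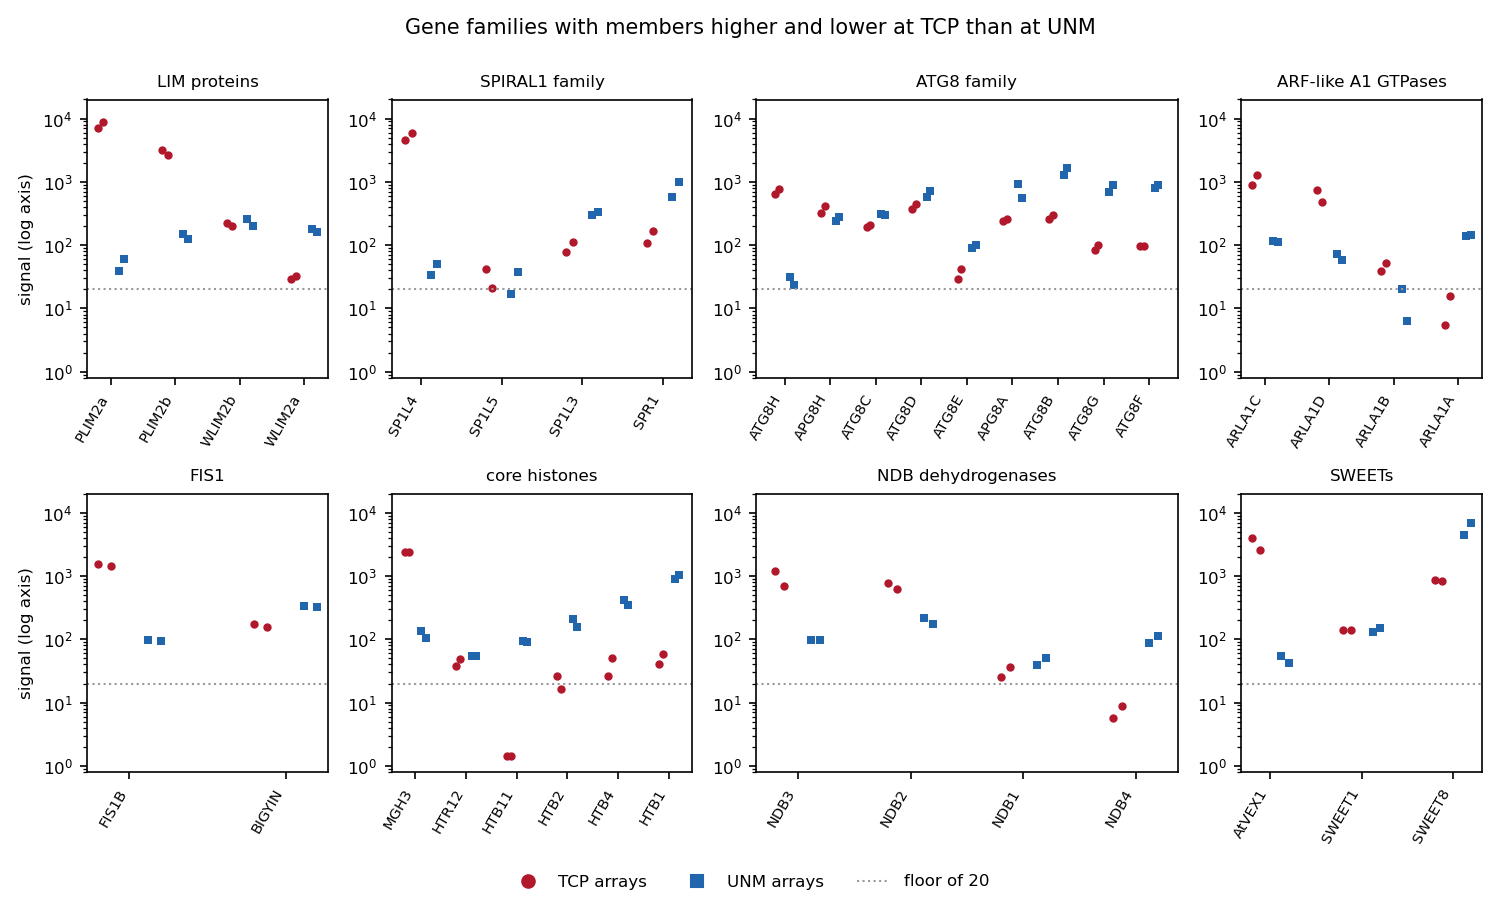
Signal on each TCP array (red circles, left of each pair) and each UNM array (blue squares, right) for members of 8 gene families, on a logarithmic axis, with the floor of 20 as a dotted line. In the SPIRAL1 panel SP1L4 was 125-fold higher at TCP and SPR1 5.65-fold lower, and in the ATG8 panel ATG8H was 26.3-fold higher and ATG8F 8.78-fold lower.

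Families of membrane traffic and autophagy also held members that moved in opposite directions. Of 4 ARF-like A1 GTPases, 3 were higher and 1 lower. ARLA1C (AT3G49870) had 886 and 1267 at TCP, against 114 and 111 at UNM (log2 difference 3.23 ± 0.23, 9.41-fold higher, adjusted p = 0.00011), whereas ARLA1A (AT5G37680) had 5.54 and 15.7 at TCP, against 137 and 145 at UNM (log2 difference -2.82 ± 0.16, at least 7.05-fold lower, adjusted p = 5.6e-05). FIS1 proteins act in the division of mitochondria and peroxisomes. FIS1B (AT5G12390) had 1564 and 1441 at TCP, against 97.5 and 94.4 at UNM (log2 difference 3.97 ± 0.21, 15.7-fold higher, adjusted p = 4.5e-05), and its paralogue BIGYIN (FIS1A) had 172 and 157 at TCP, against 335 and 328 at UNM (log2 difference -1.02 ± 0.17, 2.02-fold lower, adjusted p = 0.0035). ATG8 proteins coat the autophagosome, and of 9 genes 1 was higher and 5 lower (3 lower without the first TCP array). ATG8H (AT3G06420) had 642 and 774 at TCP, against 31.1 and 23.1 at UNM (log2 difference 4.72 ± 0.22, 26.3-fold higher, adjusted p = 3.5e-05), while ATG8F (AT4G16520) had 97.3 and 95.6 at TCP, against 804 and 892 at UNM (log2 difference -3.13 ± 0.18, 8.78-fold lower, adjusted p = 5.8e-05) and ATG8G fell as well (log2 difference -3.09 ± 0.22, 8.52-fold lower, adjusted p = 0.0001).

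Smaller trafficking families changed in part. Of 10 PRA1 genes, 3 were higher and 2 lower, led by PRA1.B4 with 2349 and 2440 at TCP, against 195 and 151 at UNM (log2 difference 3.81 ± 0.26, 14-fold higher, adjusted p = 9.9e-05). Among 10 tetraspanins 4 were higher and 4 lower, but 2 were higher without the first TCP array or either UNM array. Few genes of tethering and sorting complexes were called: 1 of 7 exocyst subunits was higher and 1 lower, and 2 of 12 ESCRT subunits were higher and 2 lower, with none higher without the first UNM array. Without the second TCP array 3 exocyst subunits were lower, and 1 ESCRT subunit was lower without any 1 of the 4 arrays. The exocyst subunit that was higher was SEC5A (log2 difference 0.65 ± 0.17, 1.57-fold higher, adjusted p = 0.019), which was lost without either UNM array (adjusted p = 0.067 and 0.062). Of 10 ubiquitin-conjugating enzymes 2 were higher (20%) and 4 lower (40%), about the shares of all tested probe sets. UBC28 (AT1G64230) had 1968 and 2240 at TCP, against 497 and 469 at UNM (log2 difference 2.12 ± 0.17, 4.35-fold higher, adjusted p = 0.00016). UBC30 (AT5G56150) had 649 and 696 at TCP, against 2181 and 2984 at UNM (log2 difference -1.92 ± 0.24, 3.79-fold lower, adjusted p = 0.00091). The subtilisin-type protease SBT5.4 had 215 and 258 at TCP, against 3657 and 6301 at UNM (log2 difference -4.35 ± 0.37, 20.4-fold lower, adjusted p = 0.0002), whereas the carboxypeptidase-like gene scpl38 had 940 and 1354 at TCP, against 5.14 and 4.13 at UNM (log2 difference 5.82 ± 0.22, at least 56.4-fold higher, adjusted p = 2.3e-05). In their families, 1 of 5 subtilases was higher and 2 lower, and 2 of 17 carboxypeptidase-like genes were higher and 6 lower.

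The transcription factors that could be followed divided about evenly between rises and falls, a balance that moved with the scaling. The study's list holds 1350 loci, of which only the 419 with a name in the annotation used here could be followed, and families were covered unevenly. Of these 419, 214 were tested, and 55 of these (25.7%) were higher and 50 (23.4%) lower, with a median log2 difference of 0.0. With quantile normalization 74 were higher and 34 lower. The study reports that transcription factors mostly followed the decline between bicellular and tricellular pollen, and names several families made up mainly of early genes. Among those families, 0 of 93 NAC, 0 of 19 ARF, 0 of 7 Alfin-like, 1 of 25 Aux/IAA and 4 of 10 HMG-box loci were tested here. The even split therefore holds for the tested loci alone. Among 13 genes gathered by an AGAMOUS-like symbol 7 were higher and 1 lower, with a median log2 difference of 1.96. The lower gene was AGL26, which is not in the study's MADS family and was not called without either TCP array. Of 12 tested genes of the study's MADS family, 6 were higher and none lower. AGL66 (AT1G77980) had 2255 and 2190 at TCP, against 137 and 128 at UNM (log2 difference 4.07 ± 0.16, 16.8-fold higher, adjusted p = 2.4e-05), AGL65 (AT1G18750) had 404 and 444 at TCP, against 30.8 and 46.4 at UNM (log2 difference 3.48 ± 0.24, 11.2-fold higher, adjusted p = 9.9e-05) and AGL104 (AT1G22130) had 1629 and 1311 at TCP, against 358 and 262 at UNM (log2 difference 2.25 ± 0.30, 4.77-fold higher, adjusted p = 0.0011). These belong to the MIKC*-type factors that act in late pollen. Of the 62 WRKY loci listed only 7 could be followed, and the 4 of these that were tested were lower, with WRKY20 (AT4G26640) at 14 and 17.8 at TCP, against 95 and 103 at UNM (log2 difference -2.30 ± 0.24, at least 4.93-fold lower, adjusted p = 0.00047) and WRKY42 (AT4G04450) at 111 and 88.8 at TCP, against 275 and 358 at UNM (log2 difference -1.66 ± 0.23, 3.15-fold lower, adjusted p = 0.0013). ZAP1 of this family was not called without the first TCP array (adjusted p = 0.052) or the second (adjusted p = 0.051).

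Zinc finger families were mixed. Of 27 C2H2 genes tested, out of 106 listed, 10 were higher and 4 lower, and AT1G70790, listed with this family by the study, had 3656 and 4305 at TCP, against 58.4 and 69 at UNM (log2 difference 5.97 ± 0.30, 62.5-fold higher, adjusted p = 3.8e-05). Of 59 C3H genes tested, out of 89 listed, 15 were higher and 17 lower, but 9 or 10 were lower without the first TCP, the second TCP or the second UNM array, and quantile normalization gave 23 higher and 9 lower. EIN3 (AT3G20770), a master regulator of ethylene signalling, had 434 and 482 at TCP, against 21.5 and 19.1 at UNM (log2 difference 4.46 ± 0.22, at least 22-fold higher, adjusted p = 3.6e-05), and BZIP34 (AT2G42380), a bZIP factor of pollen, had 258 and 261 at TCP, against 1.71 and 1.41 at UNM (log2 difference 3.70 ± 0.17, at least 13-fold higher, adjusted p = 3.1e-05). The largest fall of a factor was that of AT2G01060, of the GARP family in the study's list, with 8.06 and 1.41 at TCP, against 316 and 311 at UNM (log2 difference -3.97 ± 0.16, at least 15.7-fold lower, adjusted p = 2.4e-05).

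Other named genes with large differences were chosen after their values had been seen. PPDK (AT4G15530), pyruvate orthophosphate dikinase, had 2070 and 2237 at TCP, against 12.5 and 5.84 at UNM (log2 difference 6.75 ± 0.31, at least 108-fold higher, adjusted p = 3.3e-05). PIPK11 (AT1G01460), a kinase that makes phosphatidylinositol 4,5-bisphosphate, had 784 and 1296 at TCP, against 2.11 and 6.85 at UNM (log2 difference 5.66 ± 0.31, at least 50.4-fold higher, adjusted p = 4.7e-05). LEA4-5 (AT5G06760), a late embryogenesis abundant protein of the kind made in drying tissue, had 561 and 354 at TCP, against 1.51 and 0.705 at UNM (log2 difference 4.48 ± 0.25, at least 22.3-fold higher, adjusted p = 5.2e-05). Among the falls, SAE1A (AT4G24940), a subunit of the enzyme that activates SUMO, had 4.23 and 4.44 at TCP, against 337 and 306 at UNM (log2 difference -4.01 ± 0.22, at least 16.1-fold lower, adjusted p = 4.6e-05), and FOLB2 (AT5G62980), of folate synthesis, had 18.6 and 16.7 at TCP, against 418 and 391 at UNM (log2 difference -4.34 ± 0.23, at least 20.2-fold lower, adjusted p = 4.2e-05). In all of these the arrays of the stages did not overlap, and both arrays of the lower stage were under 20.

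Some abundant transcripts differed little. Of 73 genes with a mean signal of at least 1000 at both TCP and UNM, 14 were higher, 10 lower and 49 not called. AT2G38905 had 2507 and 3240 at TCP, against 2335 and 3500 at UNM, AT4G16450 had 1268 and 1170 at TCP, against 1264 and 1117 at UNM and AT4G37830 had 3442 and 3840 at TCP, against 3110 and 3989 at UNM. These genes were chosen for their small difference, which in each lay within the spread of the arrays. The 8 least changed genes of this class had signals of 907 to 3840 at TCP and 888 to 3989 at UNM. Of 8 genes named in the study's text, only the 3 with a name in the annotation used here could be followed. AT1G74990 had 112 and 115 at TCP, against 1099 and 1373 at UNM (log2 difference -3.43 ± 0.20, 10.8-fold lower, adjusted p = 5.8e-05), AT3G07920 fell (log2 difference -2.20 ± 0.33, 4.6-fold lower, adjusted p = 0.002), and AT4G30680 fell (log2 difference -1.63 ± 0.32, at least 3.09-fold lower, adjusted p = 0.0062), a call lost without either TCP array.

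Probe sets of the same gene often differed in whether they were called, and in 1 gene they were called in opposite directions. Of 75 genes with at least 2 tested probe sets, 17 had all of them called in 1 direction, 42 had some called, 15 had none called, and 1 had calls in opposite directions. In this gene, AT1G06750, one probe set had 54.2 and 75.5 at TCP, against 138 and 188 at UNM, and the other had 466 and 640 at TCP, against 43.0 and 39.9 at UNM. Such a gene cannot be given a direction from these arrays.

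Array measures that moved with stage or replicate are given here beside the counts. A signal of 40 or more was reached by 9028 and 9542 probe sets on the TCP arrays, against 10687 and 11446 on the UNM arrays, and the 100 brightest held 17.3% and 19.3% of the summed signal at TCP, against 11.7% and 14.6% at UNM. The log2 ratio of the 3′ to the 5′ control probe set was 1.06 and 3.19 at TCP, against 0.88 and 2.89 at UNM for GAPDH, so it followed the replicate number. For actin this ratio was -2.25 and -1.85 at TCP, against 1.79 and 1.79 at UNM. The part of RNA integrity in the results was not tested.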

How the data were processed

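The values the authors deposited are linear intensities, with 1 value for each probe set on an array, scaled beforehand to a 2% trimmed mean of 100 over 22810 probe sets; the software and its version are not given in the sources used here, and the dChip normalization and detection calls of the study's methods are not part of them. Without the 64 controls, each array was rescaled to the same trimmed mean, and log2 was taken of signals floored at 20. Probe sets at 40 or more on at least 1 of 7 arrays entered limma 3.58.1 under R 4.3.3, with the 7 arrays (TCP 2, UNM 2, bicellular pollen 2, mature pollen 1) in 1 fit, the contrast TCP minus UNM, degrees of freedom of 3 (residual) and 2.77 (prior), and p-values adjusted by Benjamini-Hochberg at 0.05. Arrays carry no count depth, so the number of arrays limits the precision. The steps were tested on simulated data.

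Names came from the platform annotation, updated through the RefSeq gene table of assembly TAIR10.1. A probe set with 1 gene was found for 13513 of 22746, 503 had several genes and 8730 had none here, and a gene with several was represented by its brightest. The comparison, members and lists were chosen with earlier results of these data known, and the lists of named families were redrawn by symbol after values had been seen. Genes named are the 12 largest rises and falls, up to 3 largest called changes in each direction of each list, the 8 least changed bright genes, genes in the study's text and the cell type markers. Other genes named were chosen after their values were seen. Lists were only counted, with no test. Summaries and figures used Python 3.11.15, numpy 2.4.6, pandas 2.3.3 and matplotlib 3.10.9.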

Additional observations from a re-analysis of the deposited data

How the results depend on the processing

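No probe set called in one direction was called in the other under any of the alternatives tried, which were other floors, an added constant, other scalings, other filters, a fit of the TCP and UNM arrays alone, the replicate block, a trended prior and each array of a replicated stage left out. The number called higher and the number called lower stayed within 1.5 times of 2996 and 5704 except with scaling from the spike-in controls, which gave 1190 higher and 2387 lower. Leaving out 1 array gave 2403 to 2981 higher and 4536 to 5554 lower. The median log2 difference of -0.38 was -0.14 with a floor of 40, 0.01 with quantile normalization, -0.07 with scaling to the median of probe sets on all arrays, -0.5 with spike-in scaling, 0 with no filter and -0.56 with a minimum signal of 80, and -0.45 to -0.31 with 1 array left out.

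Of the 432 called genes named or grouped, the number that missed the threshold was 162 with spike-in scaling, 60 without the first TCP array, 54 without the second, 44 and 41 without the first and second UNM array, 51 with no filter, 47 with a floor of 40 and 30 with quantile normalization. Replicate numbers are shared between stages, but the labels do not say that a number marks plants grown together. The study's methods take the microspore, bicellular and tricellular fractions from the same collected inflorescences, so arrays with the same number may be paired. The main fit did not use such pairing. The deviations of same-numbered arrays correlated at 0.22 between TCP and UNM, and at 0.28 and 0.44 between TCP or UNM and bicellular pollen, over probe sets. With the replicate number as a block 3316 probe sets were higher and 6165 lower, and none of the 432 genes lost its call. Signals under 20 have no order in these values, so 696 of the folds higher and 1854 of the folds lower are bounds.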
